A study of Homo sapiens with 6 samples.

Results

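The genes described here are 36 core autophagy genes and cargo receptors, chosen by name from a list, out of 34869 genes in a table of RNA levels from NCI-H295R cells. NCI-H295R is an established human adrenocortical carcinoma line that makes adrenal steroids. All 6 libraries came from this line after lentiviral transduction, 3 with a non-targeting short hairpin RNA (shCtrl) and 3 with a hairpin against TPD52 (shTPD52), so the virus and a hairpin are common to both groups. The labels name no second hairpin and no untransduced cells, and they do not say if the 3 replicates of a group grew apart. The p-values therefore reflect only how far these libraries scatter, and that scatter may be technical. All 36 names matched a single identifier in the table.

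Autophagy wraps cytoplasm and organelles in a growing double membrane, the phagophore, which closes into an autophagosome and fuses with a lysosome. The ULK1 kinase complex starts the process, and a class III PI3-kinase complex then marks the membrane with PI3P. ATG9A vesicles and the ATG2 lipid carriers feed the membrane, and ubiquitin-like conjugation attaches LC3 and GABARAP proteins to it. Cargo receptors such as SQSTM1 (p62) link ubiquitinated cargo to those proteins. In steroid-making cells the pathway is also known for turning over mitochondria and lipid droplets. Much of its control lies in phosphorylation and lipid conjugation, which RNA levels do not show.

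RNA of 5 of the 34 tested genes fell with the TPD52 hairpin and none rose. The fallers were ULK1, AMBRA1, ATG2A, ATG9A and ATG4B, which stood at 0.666 to 0.764 times their control means. They make up 14.7% of the members tested, where 12.7% of all 12782 genes tested fell and 5.63% rose, so the share is near that of the whole table. The other 29 did not pass, among them all 5 cargo receptors and the 3 tested LC3 and GABARAP genes. For 23 of those 29 the 95% interval of the fold change lay within 1.5-fold in either direction. Levels are given in FPKM, reads scaled to gene length and to library size, as deposited. Tests used limma, a moderated linear model, on log2(FPKM + 0.5), and all log2 fold changes here are on that scale. Genes averaging 1 FPKM or more entered, p-values were adjusted by Benjamini-Hochberg over the 12782 genes, and calls needed an adjusted p under 0.05. In bulk RNA, fewer cells holding a transcript and less of it per cell cannot be told apart. No member rose at an unadjusted p under 0.05 either, and 11 of 34 were lower, where 26.8% of all genes were lower and 11.8% higher at that p. On reads worked back from the table, limma-voom called 0 members higher and 6 lower, where it called 5.82% and 16.4% of all genes.

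The 5 calls depended on which libraries entered, as did those of the whole table. Leaving out any of shCtrl replicates 1, 2 and 3 or shTPD52 replicates 1 and 3 left 0 members called, while leaving out shTPD52 replicate 2 gave 12 lower and 1 higher, ATG101 (limma). In the former 5 fits, in that order, 0.994%, 2.12%, 0.305%, 0.735% and 4.5% of all genes were called lower and 0.775%, 1.4%, 0.376%, 0.509% and 2.52% higher, so few calls were left anywhere. Without shTPD52 replicate 2 32.9% were lower and 12.6% higher. The log2 fold changes of the 5 genes stayed between -0.68 and -0.31 in all 6 fits. Removing the trend that each library shows with length and with GC content ended all 5 calls, and then 4 members were higher (ATG101, SQSTM1, CALCOCO2 and TAX1BP1) and 1 lower (PIK3R4), where 10.5% and 9.99% of all genes were.

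The hairpin's target, TPD52, was lower in each knockdown library (0.630, 0.635 and 0.655 FPKM) than in any control (1.42, 1.18 and 1.29 FPKM). Its knockdown mean was 0.493 times its control mean. TPD52 averages under the filter. When it was added to the tested genes its log2 fold change was -0.65 (limma SE 0.14, adjusted p = 0.0218), which passed in 11 of 19 alternatives. The added 0.5 understates the change at so low a level, and limma-voom gave -1.02 (adjusted p = 0.00449). Depth recovered from the table was 29544343 to 38396630 reads per library. Mitochondrially encoded genes took 17.5% to 18.5% of reads in shCtrl and 19.6% to 24.3% in shTPD52. On the first principal component (61.0% of variance) shTPD52 replicate 2 lay at 0.29, between the controls (-24.1 to -16.4) and the other knockdown libraries (27.3 and 35.3). The 12 adrenal cortex markers summed to 431 to 454 FPKM in shCtrl and 497 to 508 in shTPD52, with NR5A1 between 69.2 and 78.2 FPKM and most of the sum in STAR and the CYP genes. Of the 12, 7 passed the test: HSD3B2 (4.94 to 6.42 FPKM in shCtrl, 20.1 to 21.9 in shTPD52), MC2R (0.892 to 1.36 and 3.67 to 4.39), CYP11B2 (3.10 to 3.76 and 6.33 to 11.4), CYP21A2, FDX1 and SULT2A1 rose, and NR0B1 (10.7 to 11.1 and 6.005 to 7.06) fell. Endothelial markers (4 of 4 in the table) summed to 0.0612 to 0.181 FPKM in shCtrl and 0.115 to 0.204 in shTPD52, and leukocyte markers (5 of 5) to 0.231 to 0.405 and 0.388 to 1.07, with PTPRC at or near 0. Adrenal medulla markers (3 of 5 in the table) summed to 0.306 to 0.586 and 0.568 to 1.23 FPKM, most of it CHGA. Of the 6 fibroblast markers COL3A1 stood at 18.6 to 23.8 FPKM, COL1A1 between 0.60 and 1.10, and none of the other 4 exceeded 0.149. The part of these shifts in the results below was not tested.

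**Figure D1:**
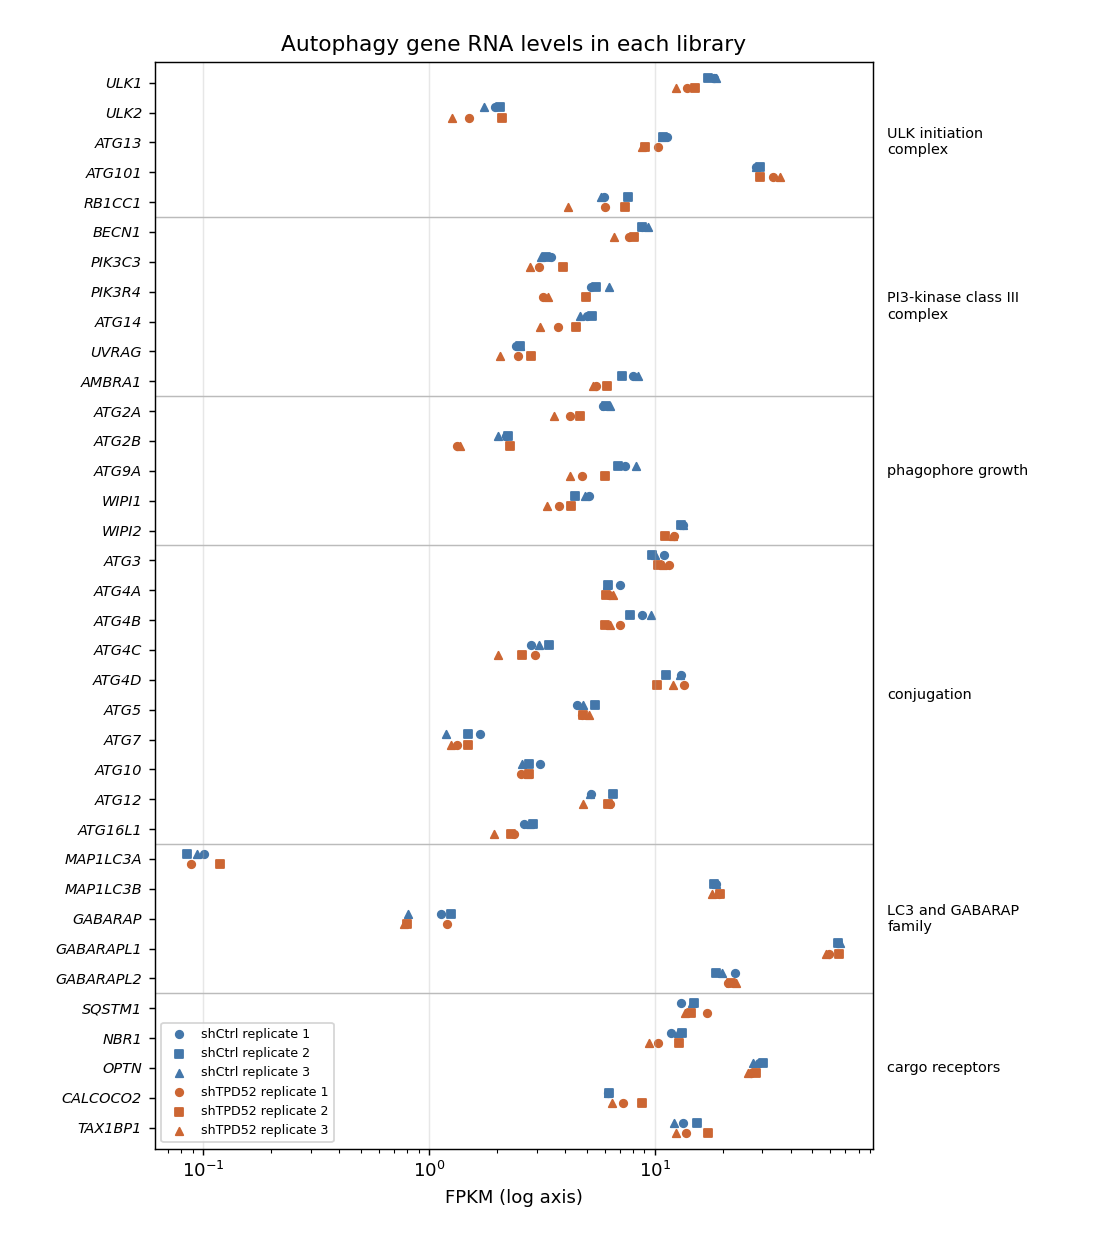
Level of each of the 36 autophagy genes in each library, in FPKM on a log axis, grouped by role; blue marks are shCtrl, orange marks shTPD52, and the marker shape gives the replicate. GABARAPL1 is the most abundant at 57.4 to 66.4 FPKM, MAP1LC3A and GABARAP the least, and the value of 0 of MAP1LC3A in shTPD52 replicate 3 is not drawn.

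Of the 5 genes of the ULK initiation complex, 1 fell, none rose and 4 did not pass. ULK1 encodes the kinase that receives signals from mTORC1 and AMPK and starts autophagosome formation (ENSG00000177169, GRCh38 chromosome 12, 131894651 to 131923167, plus strand). Its level was 18.3, 17.2 and 18.7 FPKM in shCtrl replicates 1, 2 and 3 and 13.9, 15.1 and 12.4 FPKM in shTPD52 replicates 1, 2 and 3. The groups did not overlap, with shTPD52 replicate 2 the nearest to the controls. The log2 fold change of ULK1 was -0.38 (limma SE 0.09, adjusted p = 0.0325). Between 3130 and 5246 recovered reads stand behind each value. Its call ended with median-ratio scaling (log2 fold change -0.26, limma adjusted p = 0.0562) and went to -0.06 (adjusted p = 0.524) without the length and GC trend.

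ATG101, a small subunit that stabilises ATG13, was the most abundant of this complex (ENSG00000123395, GRCh38 chromosome 12, 52069246 to 52077494, plus strand). It stood at 28.2, 29.4 and 28.2 FPKM in the controls and at 33.6, 29.4 and 35.8 FPKM in the knockdown libraries. Only shTPD52 replicate 2 lay among the controls. The log2 fold change was 0.19 (95% interval -0.02 to 0.40, limma adjusted p = 0.153), and 0.27 without that library (limma adjusted p = 0.0138). ATG13, the adaptor that anchors ULK1, had non-overlapping groups (10.8 to 11.3 FPKM in shCtrl, 8.78 to 10.3 in shTPD52) and did not pass (limma adjusted p = 0.112). RB1CC1 (FIP200), the scaffold, ranged from 5.80 to 7.61 FPKM in shCtrl and from 4.14 to 7.35 in shTPD52. ULK2, the second ULK kinase of the list, was near 2 FPKM in the controls (1.75 to 2.07) and overlapped them in the knockdown libraries (1.27 to 2.10). Within this complex the kinase ULK1 and its partner ATG101 thus had log2 fold changes of opposite sign, a difference between 2 genes that was not tested.

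Of the 6 genes of the class III PI3-kinase complex and its regulators, 1 fell and 5 did not pass, and all 6 had a negative log2 fold change. AMBRA1, a regulator of BECN1 that also recruits ubiquitin ligases, was the faller (ENSG00000110497, GRCh38 chromosome 11, 46396414 to 46594125, minus strand). It stood at 7.99, 7.13 and 8.41 FPKM in shCtrl and 5.51, 6.13 and 5.32 FPKM in shTPD52. Each knockdown library was under each control. AMBRA1 fell to 0.721 times its control mean, a log2 fold change of -0.44 (limma SE 0.10, adjusted p = 0.0271). It passed in 11 of 19 alternatives, with median-ratio scaling among them (-0.32, limma adjusted p = 0.0457) but not without the length and GC trend (-0.17, adjusted p = 0.126).

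BECN1, the regulatory subunit and most abundant gene of this group (ENSG00000126581, GRCh38 chromosome 17, 42810134 to 42833350, minus strand), was at 8.82, 8.76 and 9.29 FPKM in shCtrl. In shTPD52 it was at 7.73, 8.08 and 6.59 FPKM. The groups did not overlap, yet the log2 fold change of -0.25 (95% interval -0.48 to -0.02) did not pass (limma adjusted p = 0.105). PIK3R4 (VPS15), the protein kinase-like scaffold of the complex, is singled out after its values were seen. Its levels were 5.21, 5.50 and 6.25 FPKM in shCtrl and 3.21, 4.95 and 3.38 FPKM in shTPD52, so replicates 1 and 3 were well under the controls and replicate 2 only slightly. Its log2 fold change of -0.52 exceeded in size those of 4 of the 5 fallers but missed the threshold (SE 0.16, limma adjusted p = 0.0565). PIK3R4 was the member called lower without the length and GC trend (-0.41, limma adjusted p = 0.0466) and passed in 5 of 18 alternatives. ATG14, the subunit that directs the complex to autophagy, went from 4.99 ± 0.32 to 3.77 ± 0.68 FPKM (SD, n = 3 each) with no overlap (limma adjusted p = 0.0817). The catalytic subunit PIK3C3 (VPS34) and UVRAG, which joins an alternative form of the complex, overlapped between groups, with log2 fold changes of -0.022 and -0.031 that change sign with median-ratio scaling.

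Among the 5 genes of phagophore growth, 2 fell and 3 did not pass, and all 5 log2 fold changes were negative. ATG2A encodes a bridge-like lipid carrier between the endoplasmic reticulum and the phagophore (ENSG00000110046, GRCh38 chromosome 11, 64894546 to 64917248, minus strand). It was at 5.89, 6.06 and 6.36 FPKM in shCtrl and at 4.20, 4.68 and 3.59 FPKM in shTPD52. The groups were apart, with replicate 3 the lowest. ATG2A had a log2 fold change of -0.51 (limma SE 0.11, adjusted p = 0.0239), the smallest adjusted p among the members. ATG9A encodes the membrane-spanning scramblase of the vesicles that seed the phagophore (ENSG00000198925, GRCh38 chromosome 2, 219219380 to 219229717, minus strand). Its levels of 7.39, 6.85 and 8.29 FPKM in shCtrl compare with 4.78, 6.01 and 4.23 FPKM in shTPD52. It fell by 0.55 (SE 0.14, limma adjusted p = 0.033), the lowest ratio to control of the 34 members tested (0.666). Exon bases of ATG9A are shared in part (38.8%, same strand) with an unnamed gene, ENSG00000284820, which held at most 0.0199 FPKM. Both calls held with median-ratio scaling and ended without the length and GC trend (-0.19, limma adjusted p = 0.136, for ATG2A and -0.38, adjusted p = 0.0675, for ATG9A).

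WIPI2, the PI3P reader that recruits ATG16L1, was the most abundant of this group (ENSG00000157954, GRCh38 chromosome 7, 5190188 to 5233826, plus strand). It was at 13.3, 13.1 and 13.4 FPKM in shCtrl and 12.2, 11.1 and 12.0 FPKM in shTPD52. Each knockdown value was under each control, but the difference was small at -0.16 on the log2 scale (95% interval -0.34 to 0.02, limma adjusted p = 0.167). WIPI1, its relative, went from 4.83 ± 0.35 to 3.80 ± 0.47 FPKM (SD, n = 3 each) without overlap and did not pass (limma adjusted p = 0.0879). ATG2B, the second ATG2 carrier of the list, was at 1.33 and 1.37 FPKM in shTPD52 replicates 1 and 3, and at 2.28 in replicate 2, above its 3 controls (2.02 to 2.25). Its log2 fold change was -0.32 (limma adjusted p = 0.214), and -0.52 without shTPD52 replicate 2 (limma adjusted p = 0.00946).

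Promoter sequence is shown for the fallers whose annotated start allows it and for the 2 members with a CACGTG motif, the core of the E-box that TFEB, a known activator of lysosomal and autophagy genes, can bind. Each window is the 250 bases before the RefSeq start on GRCh38.p14, 5′ to 3′, with CACGTG in capitals. The motif is its own reverse complement, so a single search covers both strands. Windows of AMBRA1 and ATG4B lie wholly inside the GENCODE release 29 gene and are not printed. Those of ATG2A, ATG9A, ATG3 and ATG14 overlap their gene in part, and that of ULK1 lies outside it. The CACGTG matches of ATG3 and ATG14 both fall in the part that overlaps the gene.
ULK1, chr12:131894372-131894621, plus strand: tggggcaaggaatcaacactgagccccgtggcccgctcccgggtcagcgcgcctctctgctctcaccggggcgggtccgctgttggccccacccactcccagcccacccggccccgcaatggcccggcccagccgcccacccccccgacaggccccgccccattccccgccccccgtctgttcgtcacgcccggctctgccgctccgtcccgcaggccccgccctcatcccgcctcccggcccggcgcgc
ATG2A, chr11:64917210-64917459, minus strand: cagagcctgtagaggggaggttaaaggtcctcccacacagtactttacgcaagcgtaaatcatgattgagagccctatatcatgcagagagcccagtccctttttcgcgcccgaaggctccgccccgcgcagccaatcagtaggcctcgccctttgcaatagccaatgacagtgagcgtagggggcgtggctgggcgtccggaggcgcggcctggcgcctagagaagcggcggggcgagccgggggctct
ATG9A, chr2:219229637-219229886, minus strand: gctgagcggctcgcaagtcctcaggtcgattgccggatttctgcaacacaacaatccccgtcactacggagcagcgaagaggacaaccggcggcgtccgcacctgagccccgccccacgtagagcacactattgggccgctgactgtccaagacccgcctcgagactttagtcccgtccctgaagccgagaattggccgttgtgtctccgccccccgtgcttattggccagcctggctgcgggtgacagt
ATG3, chr3:112561963-112562212, minus strand: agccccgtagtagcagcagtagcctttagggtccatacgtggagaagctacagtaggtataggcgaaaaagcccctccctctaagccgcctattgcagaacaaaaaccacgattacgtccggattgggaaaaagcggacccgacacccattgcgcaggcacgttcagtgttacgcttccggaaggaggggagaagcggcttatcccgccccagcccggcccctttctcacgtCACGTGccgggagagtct
ATG14, chr14:55411831-55412080, minus strand: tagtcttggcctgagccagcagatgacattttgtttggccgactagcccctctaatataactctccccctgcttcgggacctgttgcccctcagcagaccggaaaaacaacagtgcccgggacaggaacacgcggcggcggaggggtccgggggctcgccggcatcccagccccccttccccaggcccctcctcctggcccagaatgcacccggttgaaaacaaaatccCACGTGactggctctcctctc
CACGTG lies in 2 of the 32 member windows in the RefSeq table (6.25%) and in 1772 of 27305 windows of all genes (6.49%). None of the printed windows of fallers (ULK1, ATG2A and ATG9A) holds it. The windows of AMBRA1 and ATG4B lack it too, but they lie wholly inside the gene and may not be promoter sequence. ATG3 (log2 fold change 0.09) and ATG14 (-0.37), which do, did not pass and had opposite signs. A match or its lack describes these letters only. GC makes up 78.0% of the ULK1 window, 62.4% of that of ATG2A and 62.8% of that of ATG9A, against a median of 62.2% for the member windows.

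The 10 conjugation genes held 1 faller and 9 that did not pass. ATG4B encodes the main protease that trims LC3 and GABARAP precursors and releases them from membranes (ENSG00000168397, GRCh38 chromosome 2, 241637213 to 241673857, plus strand). It was at 8.77, 7.75 and 9.59 FPKM in shCtrl and 7.03, 6.02 and 6.34 FPKM in shTPD52. Here replicate 2 was the lowest knockdown library, unlike for the other fallers. ATG4B fell by 0.40 (SE 0.11, limma adjusted p = 0.041), a call that held in 8 of 19 alternatives and ended with median-ratio scaling (-0.28, limma adjusted p = 0.119). Its relatives did not pass. ATG4D, the most abundant conjugation gene (ENSG00000130734, GRCh38 chromosome 19, 10543895 to 10553418, plus strand), stood at 13.02, 11.22 and 12.95 FPKM in shCtrl and 13.5, 10.2 and 12.1 FPKM in shTPD52. Those values overlapped, with replicate 2 the lowest of each group. The log2 fold change of -0.06 (limma adjusted p = 0.728) turned positive under median-ratio scaling. ATG4A ranged from 6.10 to 7.04 FPKM over the 6 libraries and ATG4C from 2.03 to 3.41.

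ATG3, ATG7, ATG10, ATG12 and ATG5, which act in LC3 lipidation, did not pass and their groups overlapped. ATG3, the E2-like enzyme for LC3, averaged 10.3 ± 0.68 FPKM in shCtrl and 10.9 ± 0.62 in shTPD52 (SD, n = 3 each), and its log2 fold change was 0.09 (95% interval -0.12 to 0.29). ATG7, the E1-like enzyme shared by both conjugation systems, was at 1.46 ± 0.25 and 1.36 ± 0.12 FPKM. ATG10, the E2-like enzyme for ATG12, was at 2.83 ± 0.27 and 2.69 ± 0.12 FPKM. ATG12 and ATG5, which are joined to each other, stood at 5.65 ± 0.77 and 4.93 ± 0.45 FPKM in shCtrl and at 5.81 ± 0.85 and 4.90 ± 0.20 FPKM in shTPD52. ATG16L1, which places that conjugate on the membrane, was lower in each knockdown library (1.95 to 2.38 FPKM) than in each control (2.62 to 2.89) without passing (log2 fold change -0.28, limma adjusted p = 0.116).

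Of the 5 LC3 and GABARAP genes, 3 were tested and none passed. GABARAPL1 was the most abundant of all 36 members (ENSG00000139112, GRCh38 chromosome 12, 10212458 to 10223130, plus strand). Its levels were 65.1, 65.2 and 66.4 FPKM in shCtrl and 59.2, 65.8 and 57.4 FPKM in shTPD52. Replicate 2 lay within the controls and the other knockdown libraries under them. The log2 fold change was -0.11 (95% interval -0.29 to 0.07, limma adjusted p = 0.321) and turned to 0.012 with median-ratio scaling. GABARAPL2 stood at 20.4 ± 1.99 and 21.97 ± 0.93 FPKM (SD, n = 3 each). MAP1LC3B, the LC3 form most often followed as an autophagosome marker, stood at 18.6 ± 0.28 and 18.9 ± 0.82 FPKM, a log2 fold change of 0.023 (95% interval -0.15 to 0.20). Reads can be exchanged between MAP1LC3B and its near-identical copy MAP1LC3B2, which held 0.423 ± 0.067 and 0.461 ± 0.191 FPKM.

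MAP1LC3A and GABARAP lay under the filter. MAP1LC3A was at 0.0852 to 0.101 FPKM in shCtrl, and at 0.0881, 0.119 and 0 FPKM in shTPD52, values that rest on at most 10 recovered reads. GABARAP was at 1.14, 1.26 and 0.806 FPKM in shCtrl and 1.197, 0.801 and 0.774 FPKM in shTPD52, from 57 to 76 recovered reads, and the groups overlapped. Its level is uncertain. In GENCODE release 29, 30.5% of its exon bases are shared with another gene on the same strand (AC120057.2). On the opposite strand the share is 25.2%. AC120057.2 itself is not among the 34869 genes. How the authors' counting treated reads on shared bases is not given in the sources used here. Without a filter neither passed (limma adjusted p = 0.706 for MAP1LC3A and 0.712 for GABARAP).

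None of the 5 cargo receptors passed. OPTN, a receptor for damaged mitochondria and bacteria, was the most abundant (ENSG00000123240, GRCh38 chromosome 10, 13099449 to 13138308, plus strand). It was at 29.03, 30.2 and 27.3 FPKM in shCtrl and 26.7, 28.1 and 25.998 FPKM in shTPD52, with overlap and a log2 fold change of -0.09 (95% interval -0.27 to 0.08, limma adjusted p = 0.392). SQSTM1, whose protein is itself degraded by autophagy, was at 13.02, 14.98 and 14.6 FPKM in shCtrl and 17.1, 14.4 and 13.6 FPKM in shTPD52. Only replicate 1 of the knockdown lay above the controls (log2 fold change 0.08, 95% interval -0.17 to 0.33). MRNIP and MGAT4B overlap SQSTM1, which shares 22.04% of its exon bases with genes on the opposite strand, and the strand setting of the counting is not given in the sources used here. CALCOCO2 (NDP52), a receptor for bacteria and mitochondria, was the member whose knockdown libraries (7.26, 8.77 and 6.44 FPKM) all exceeded the controls (6.22, 6.25 and 6.20 FPKM). Its log2 fold change of 0.24 did not pass (SE 0.12, limma adjusted p = 0.172), whereas its value under median-ratio scaling passed (0.35, adjusted p = 0.038), as did that without the length and GC trend (0.45, adjusted p = 0.00845). TAX1BP1, a related receptor, ranged from 12.2 to 15.4 FPKM in shCtrl and from 12.5 to 17.2 in shTPD52. NBR1, which works beside SQSTM1, went from 12.6 ± 0.72 to 10.9 ± 1.77 FPKM (SD, n = 3 each) and did not pass (limma adjusted p = 0.224).

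**Figure D2:**
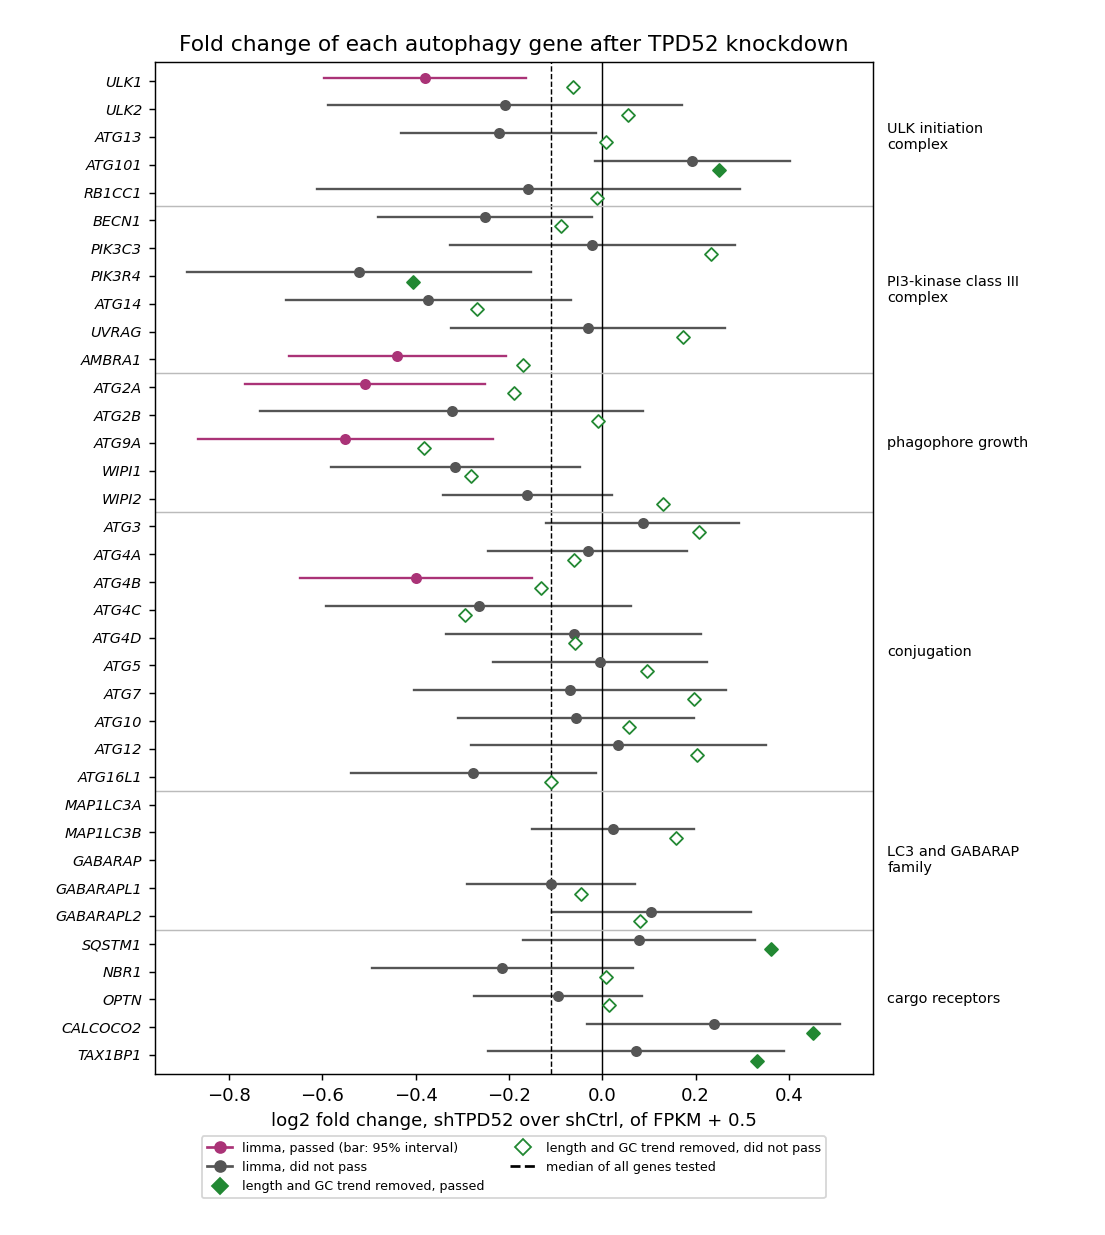
log2 fold change of FPKM + 0.5, shTPD52 over shCtrl, for the 34 tested genes; circles with bars are limma estimates and 95% intervals, diamonds the estimates without each library's length and GC trend, and the dashed line the median of all genes tested (-0.11). The 5 genes that passed lie between -0.55 and -0.38, and after the trend was removed filled diamonds mark PIK3R4 as lower and ATG101, SQSTM1, CALCOCO2 and TAX1BP1 as higher.

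The roles differed in their medians, and the medians moved with the processing. The median log2 fold change was -0.31 for the PI3-kinase group, -0.32 for phagophore growth and -0.21 for the ULK complex. It was -0.059 for conjugation, 0.023 for the 3 tested LC3 and GABARAP genes and 0.073 for the receptors. Without the length and GC trend these medians were -0.13 for the PI3-kinase group, -0.19 for phagophore growth, 0.0078 for the ULK complex, 0.081 for LC3 and GABARAP, -2.6e-06 for conjugation and 0.33 for the receptors, 3 of which were then called higher. No test of the difference between roles was made. Over all 34 members the median was -0.13, against -0.11 for all genes tested, and 26 of 34 (76.5%) were negative against 63.2% of all genes. The knockdown libraries lay wholly under the controls for 12 of 34 members (35.3%), where 28.3% of all genes did, and wholly above them for 1 of 34 (2.94%), where 13.8% did. Median-ratio scaling moved the median of all genes from -0.11 to 0.00 and that of the members from -0.13 to -0.015, with 3 members lower (8.12% of all genes) and 1 higher (8.47%). Against that median the members as a list lay close to the rest of the table.

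Library by library, shTPD52 replicate 2 was the highest knockdown library for 21 of 34 members (61.8%), where it was for 52.8% of all genes. Relative to the control mean the median member lay at -0.097, -0.023 and -0.22 on the log2 scale in shTPD52 replicates 1, 2 and 3. All genes tested lay at -0.10, -0.032 and -0.18 in the same libraries. The members so followed the order of the whole table, with replicate 3 the farthest from the controls and replicate 2 the nearest. All 6 PI3-kinase genes were highest in replicate 2 among the knockdown libraries, and 2 of the 10 conjugation genes were.

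**Figure D3:**
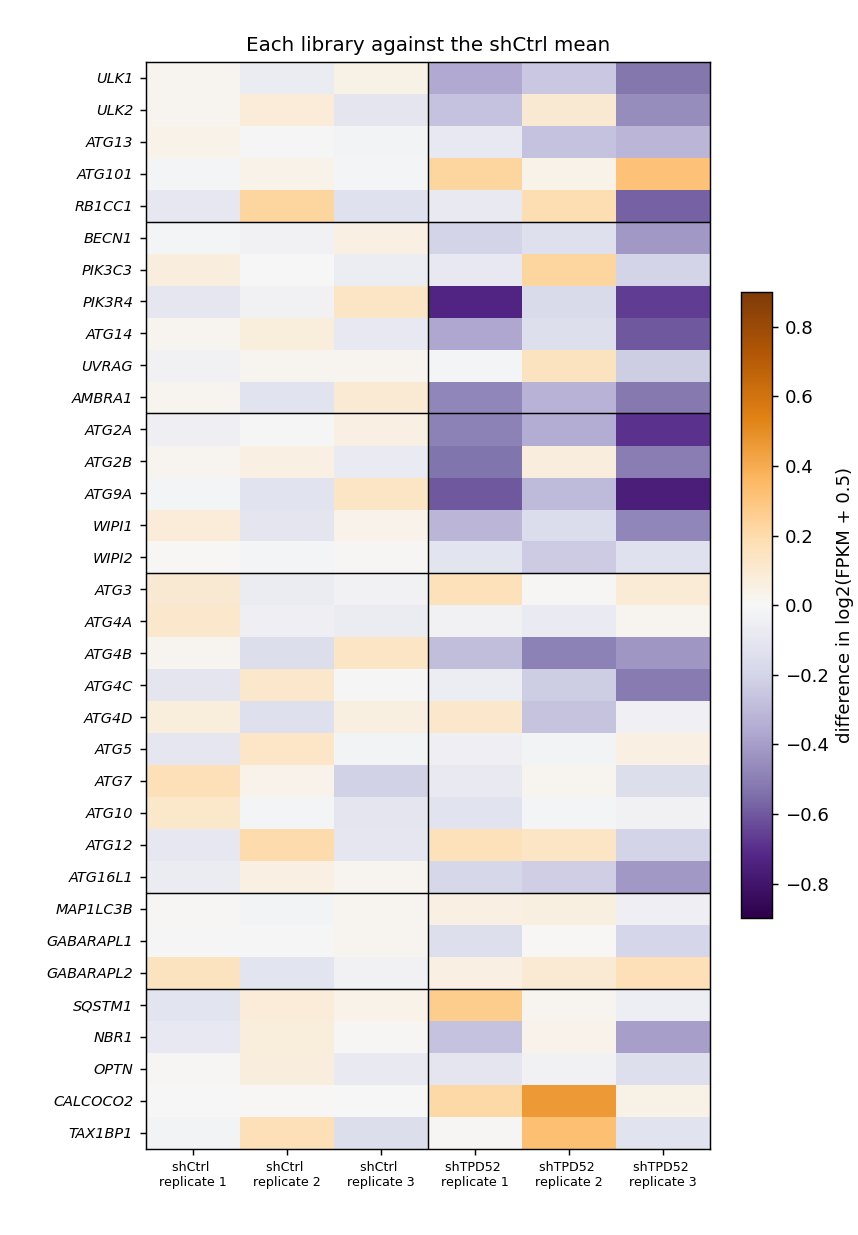
Difference of each library from the shCtrl mean in log2(FPKM + 0.5) for the 34 tested genes (rows, by role, lines between roles) in the 6 libraries (columns); purple is lower and orange higher. The purple cells gather in shTPD52 replicates 1 and 3 from ULK1 down to WIPI1, replicate 2 is paler there for most genes, and the receptor CALCOCO2 is orange in replicate 2.

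Base composition and length of the fallers are given as a description, since the list did not use them. GC content of their longest transcripts was 55.5% to 64.2%. At or above 55.5% lay also 3 members that did not pass, ATG101, ATG4D and SQSTM1. Gene lengths of the fallers were 4724 to 7833 bases, a range that also held 13 of the 29 members that did not pass. Over the 34 members the log2 fold change correlated with GC content at a Spearman rho of -0.33 and with length at -0.015. Over 12707 genes tested with both values the order was reversed, with rho of -0.034 for GC content and -0.35 for length. These are descriptions across genes that share libraries and depth, not tests. Members were longer than the table as a whole, with a median of 6526 bases against 4512. In the table genes of 5793 to 8190 bases had a median log2 fold change of -0.21, and genes of 1450 to 2047 bases one of 0.11.

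**Figure D4:**
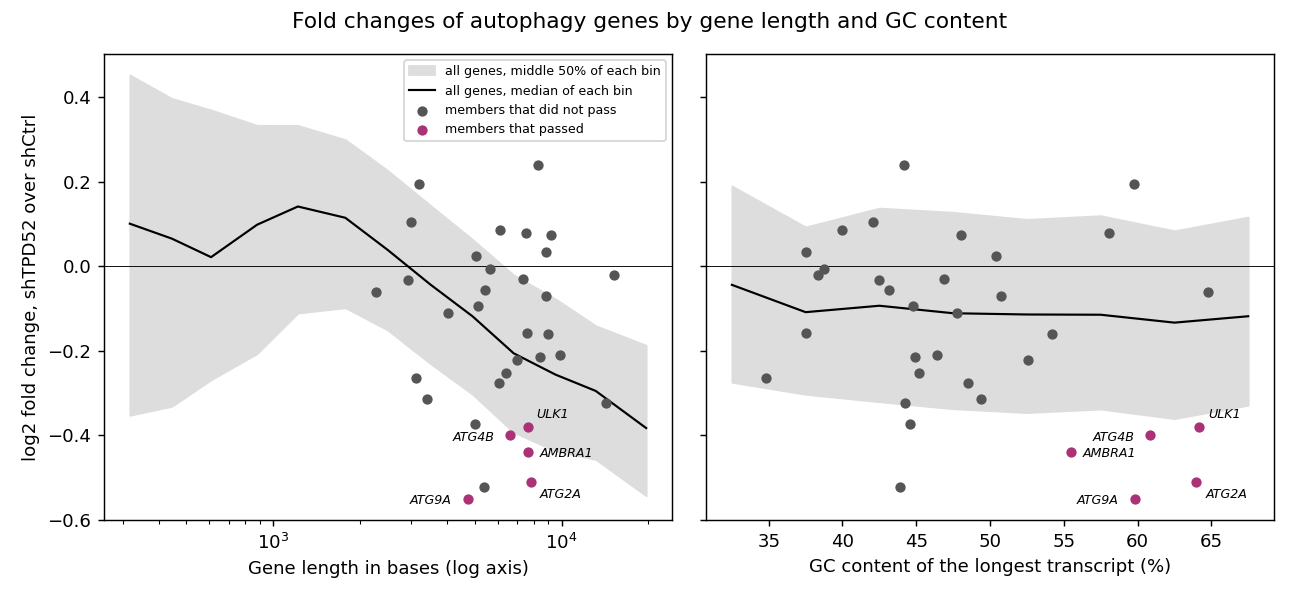
log2 fold change, shTPD52 over shCtrl, against gene length in bases on a log axis (left) and GC content of the longest transcript in percent (right); points are the 34 tested members, purple those that passed, and the black line and grey band are the median and middle 50% of all genes in bins of at least 100 genes. The all-gene line falls with length and is nearly flat with GC content, and the 5 purple points lie between 55.5% and 64.2% GC.

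A further list of 61 autophagy genes held 60 in the table and 52 tested, of which 2 rose, 9 fell and 41 did not pass. The fallers made up 17.3%, against 12.7% of all genes, of which 5.63% rose. The median log2 fold change was -0.16 against -0.11. ATG16L2, a relative of ATG16L1, fell from 3.55 ± 0.22 to 1.84 ± 0.13 FPKM (SD, n = 3 each; log2 fold change -0.79, limma adjusted p = 0.00886) and held its call without the length and GC trend (-0.48, limma adjusted p = 0.0196). TP53INP2, a nuclear protein that promotes LC3 traffic, fell to a log2 fold change of -0.49 (by limma, adjusted p = 0.0297). Among 13 genes of fusion with lysosomes 3 fell and 1 rose, where 12.7% of all genes fell and 5.63% rose. TECPR2 stood at -0.62 (log2 fold change, limma adjusted p = 0.0152). VPS11 and VPS18, core subunits of the HOPS tethering complex, had -0.36 and -0.37 (limma adjusted p = 0.023 and 0.0283). VAMP8, a SNARE of autophagosome and lysosome fusion, rose from 16.9 ± 0.50 to 20.7 ± 1.26 FPKM (SD, n = 3 each, log2 fold change 0.29, limma adjusted p = 0.0441). Without the length and GC trend TP53INP2, TECPR2, VPS18 and VAMP8 also kept their calls (limma adjusted p = 0.0468, 0.0329, 0.0417 and 0.039). VPS11 lost its call there (-0.18, limma adjusted p = 0.123).

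Of 8 mTORC1 genes 3 fell and 1 rose, where 12.7% of all genes fell and 5.63% rose, a difference that was not tested. AKT1S1 (PRAS40), an inhibitory subunit, rose to 15.3 ± 1.96 FPKM in shTPD52 (SD, n = 3), at a log2 fold change of 0.45 (by limma, adjusted p = 0.0294). MTOR, the kinase itself, was at -0.56 on the same scale (limma adjusted p = 0.0304), and TSC1 and TSC2, which restrain mTORC1, had -0.44 and -0.41 (limma adjusted p = 0.0326 and 0.0449). RUBCN, a negative regulator of autophagy among the other core genes, had -0.68 (limma adjusted p = 0.0355). These 4 are named after their values were seen. Without the length and GC trend none of these 4 passed. MTOR went to -0.23 (limma adjusted p = 0.0705) and RUBCN to -0.36 (limma adjusted p = 0.074). TSC1 went to -0.067 (limma adjusted p = 0.524) and TSC2 to 0.061 (limma adjusted p = 0.675). No mTORC1 gene was then lower, while AKT1S1 kept its call as higher (0.68, limma adjusted p = 0.00904). Of the 15 tested organelle receptors and mitophagy genes, 0 passed with limma, where 12.7% of all genes fell and 5.63% rose. At an unadjusted limma p under 0.05, 3 were lower (BCL2L13, CCPG1 and STBD1), where 26.8% of all genes were. Limma-voom called 1 lower, CCPG1, where it called 16.4% of all genes lower. Without the length and GC trend 2 genes outside those 3 were called higher, where 10.5% of all genes were. They were the mitophagy receptor BNIP3 and SEC62. These genes are named after their values were seen. Without shTPD52 replicate 2, 24 of the 52 were lower and 3 higher, where 32.9% and 12.6% of all genes were. Without shCtrl replicate 3 none passed, where 0.305% of all genes were lower and 0.376% higher. Without shTPD52 replicate 1 none did either, where 0.735% of all genes were lower and 0.509% higher.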

How the data were processed

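RNA from 6 NCI-H295R libraries, 3 per group, was compared. Per the labels' protocols, TRIzol was used for total RNA and a VAHTS Universal V6 kit for paired-end libraries. The authors deposited FPKM values; per the submitters' processing notes HISAT2 2.2.1, featureCounts 2.0.3 and GRCh38 (hg38) were used, with no role stated. Annotation, filters and strandedness: not given in the sources used here.

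Group and replicate came from the sample titles. Reads per gene were worked back from FPKM as whole multiples of 1 read (tolerance 0.02), with GENCODE release 29 exon lengths for 19220 genes and a searched length for 13274, where whole reads follow from the search. Odd counts made up 26.0% to 29.4% of values from 1 to 20 reads, as would be seen if both mates were counted, which no label states. A floor of 3 reads is 0.0391 to 0.0508 FPKM for a gene of 2 kb, counting error only.

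Genes averaging 1 FPKM or more entered limma 3.58.1 (R 4.3.3, trend in the prior variance) on log2(FPKM + 0.5), two-sided, adjusted by Benjamini-Hochberg. That scale understates changes of low genes. The fit was tested on simulated data. Alternatives were other pseudocounts and filters, median-ratio and quantile scaling, other priors, a replicate block, removal of each library's trend on length and GC content (loess, span 0.3, 12707 genes), rescaling to non-mitochondrial reads, limma-voom, protein-coding genes only, and leaving out each library. Members that passed and the most abundant member of each role are given in full and the others by means or ranges. Up to 5 fallers and 5 risers of the further list, by smallest p, are named. The members, lists and tests were chosen with earlier results of these data known.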

Additional observations from a re-analysis of the deposited data

How the results depend on the processing

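Over 19 alternatives 523 of 634 values of single members kept their direction and side of the threshold, 41 lost the call, 19 gained it and 51 changed sign, none of the last past the threshold. The main counts, 720 genes higher and 1621 lower, 0 members higher and 5 lower, and 2 other autophagy genes higher and 9 lower, moved as follows. Without a filter they were 177 and 354 genes, 0 members lower, and 0 and 3 other genes. A filter of 5 FPKM left 5 other genes lower. Median-ratio scaling gave 1083 and 1038 genes and 1 member higher with 3 lower, and quantile normalization 1152 genes higher and 1 member higher with 3 lower. Removing the length and GC trend gave 1329 genes higher, 4 members higher and 1 lower, and 4 other genes higher and 4 lower. Only 1 other gene was higher without the variance trend, with limma-voom or with the replicate block.

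Leaving out each library in turn, the counts ran from 48 to 1616 genes higher and 39 to 4209 lower, 0 to 1 members higher and 0 to 12 lower, and 0 to 3 other genes higher and 0 to 24 lower, with the highest count of each without shTPD52 replicate 2. In those fits a group of 2 is assumed to vary like the group of 3. TPD52 kept its direction, at -0.65 without a filter (limma adjusted p = 0.067) or with 5 FPKM (0.0616), -0.50 without the length and GC trend (0.0769) and -0.70 to -0.60 without single libraries. With the replicate block 7 members were lower and none higher, PIK3R4 (limma adjusted p = 0.0375) and ATG14 (0.0494) joining the 5, while 16.9% of all genes (2158) were lower and 7.09% (906) higher. The labels do not say if replicate numbers pair the samples. Deviations of same-numbered libraries correlated at 0.045, 0.25 and 0.022, and those of differently numbered ones at -0.29 to 0.28. With so few libraries per group these values cannot settle whether the samples are paired.

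Log2 fold changes of members that turned sign were all without a call. With median-ratio scaling they were PIK3C3 0.084, UVRAG 0.070, ATG4A 0.083, ATG4D 0.058, ATG5 0.11, ATG7 0.021, ATG10 0.047, GABARAPL1 0.012 and OPTN 0.027. With quantile normalization they were PIK3C3 0.12, UVRAG 0.11, ATG4A 0.10, ATG4D 0.044, ATG5 0.14, ATG7 0.046 and ATG10 0.079. Without the length and GC trend they were ULK2 0.055, ATG13 0.0078, PIK3C3 0.23, UVRAG 0.17, WIPI2 0.13, ATG5 0.097, ATG7 0.20, ATG10 0.058, NBR1 0.0071 and OPTN 0.015. TSC2, a gene of the further list and not a member, also turned sign there, from -0.41 to 0.061, and lost its call. Rescaling to non-mitochondrial reads turned PIK3C3 to 0.046, UVRAG 0.034, ATG4A 0.041, ATG4D 0.014, ATG5 0.066 and ATG10 0.0091. Without single libraries the values ran from -0.15 to 0.069 for PIK3C3, -0.066 to 0.027 for ATG4A, -0.17 to 0.016 for ATG7, -0.11 to 0.0052 for ATG10, -0.031 to 0.15 for ATG12, -0.057 to 0.058 for ATG5, -0.056 to 0.17 for TAX1BP1, -0.013 to 0.15 for SQSTM1, -0.15 to 0.041 for ATG4D, -0.33 to 0.050 for RB1CC1 and -0.12 to 0.069 for UVRAG. The cause of these changes was not tested.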
